A study of Nematostella vectensis with 66 samples.

Results

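The 100 genes described here stood highest in the morning and lowest at the end of the sampled day in the starlet sea anemone, Nematostella vectensis, with adults held in a salt marsh and sequenced whole. They were chosen from 24265 gene models by their hourly means over 60 libraries and 9 hours. A gene entered the choice with a mean of at least 15 CPM (a gene's counts over the sum of its library, times 1000000), which 7691 gene models had. Of these, 451 had their highest hourly mean of log2(CPM + 2) at ZT3 or ZT5 and their lowest at ZT11 or ZT12, and the 100 with the largest F over hours in a one-way analysis of variance were taken. Peak hour, trough hour and the size of the fall between them therefore chose the genes, and they are given below as description with no test.

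Nematostella is a burrowing estuarine anemone that has been studied for daily rhythms of locomotion, metabolism and gene expression. Its genome holds relatives of the clock genes known from other animals, and light is the best described cue that sets their cycle. In a tidal marsh, light, temperature and water depth all change through the day, so a change from hour to hour in the field can go with any of them.

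The animals were adults descended from a stock of Great Sippewissett Marsh, Massachusetts, bred for several generations in the laboratory. They were brought to a salinity of 30 ppt, and 200 of them were set out in 10 mesh pens in a pool with restricted tides. Pens were taken up every hour through 1 day, from 8 h (ZT3) to 17 h (ZT12), so that the low described here is that of the sampled hours. Of the 66 libraries, 29 came from pools of 2 animals and 37 from single animals, with no other treatment or genotype between groups. ZT4 held 3 pools and 1 single animal, ZT6 held 2 pools and 4 single animals, and each of the other 8 hours held 3 pools and 4 single animals. Replicates were separate animals or pools. The labels do not tell from which pen an animal came, so pen and hour cannot be told apart. The ZT4 library D is labelled as a pool although the protocol makes letter D a single animal, and the label was followed.

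Library totals ran from 251647 to 909746 counts with a median of 640195, and the lowest was the ZT4 individual library C. The choice of genes left out 6 libraries, which were the 4 of ZT4, ZT3 individual B and ZT5 pooled E. Of these 6, all but the ZT4 pools D and F stood apart in a block of genes. For example, NVE3853, which is not among the 100 genes, had 2595 counts in these 4 libraries together and 72 counts in the other 62 libraries together. Counts of genes past the adjusted threshold that rest on the 4 libraries are given with and without them. The gene models are named by identifiers that the files do not pair with gene names, so their functions, and the markers of tissues, are not analysed here. In RNA of whole animals, fewer cells of a type and less RNA per cell cannot be told apart.

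The 100 genes were of moderate abundance. Their mean level ran from 15.7 to 804.9 CPM with a median of 69.8 CPM, beside a median of 39.1 CPM over all 7691 genes that passed the level filter. The ratio of the highest to the lowest hour, on the log2(CPM + 2) scale turned back to a fold, ran from 1.38 to 10.4 with a median of 2.29. It was at least 2 in 71 of the genes, at least 3 in 22 and at least 4 in 9. Over all 7691 genes the median ratio between their own highest and lowest hours was 1.69. The F that chose the genes ran from 3.56 to 12.0, and the choice had no gap at its edge. NVE14220, the last gene inside, had an F of 3.558 and NVE15793, the first outside, an F of 3.55.

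Most of the genes peaked at ZT5 and had their lowest hour at ZT12. This pattern held for 67 genes, 12 were highest at ZT3 and lowest at ZT12, 16 were highest at ZT3 and lowest at ZT11, and 5 were highest at ZT5 and lowest at ZT11. In all, 72 peaked at ZT5 and 28 at ZT3. A low at the very end of the day describes the 79 genes with their lowest hour at ZT12 and not all of the other 21. Of the 21 genes lowest at ZT11, 9 stood above their mean of hours again at ZT12, and 5 had ZT12 as their second lowest hour. Their median at ZT12 was -0.06 log2 units from the mean of hours, so the ZT11 low was a dip followed by a return in many of them.

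**Figure D1:**
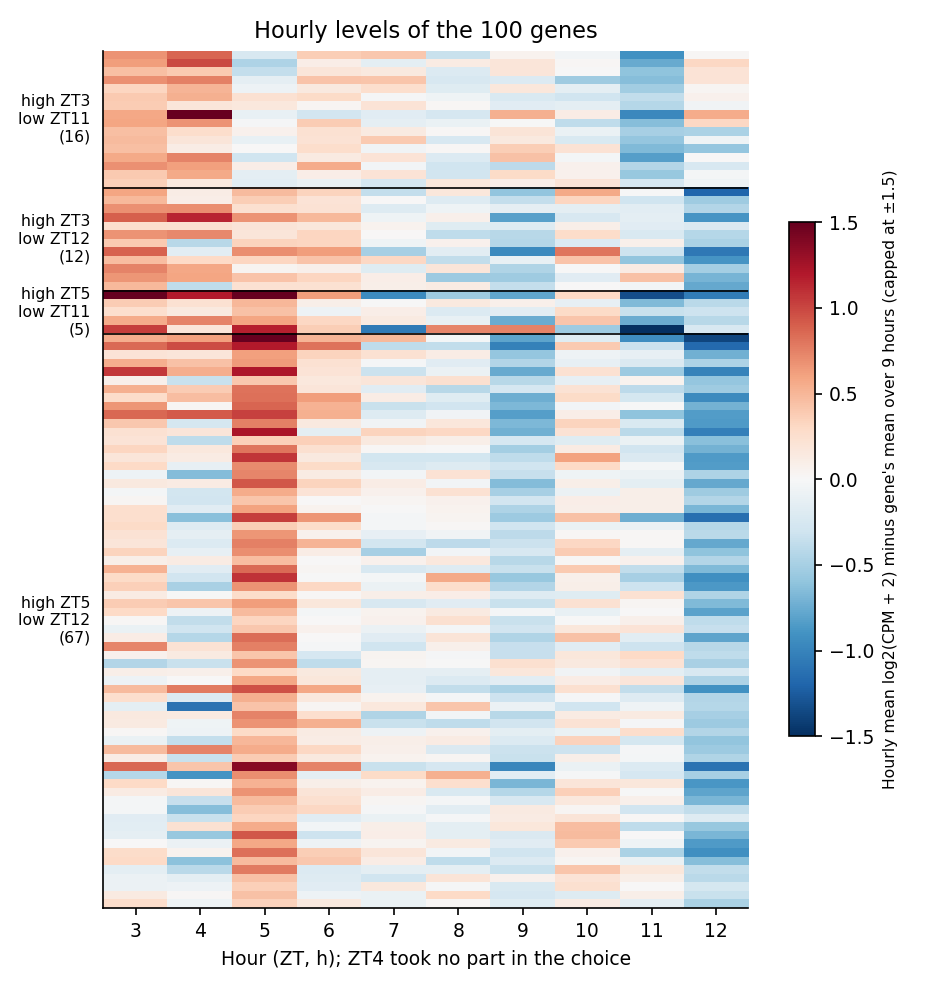
Hourly mean of log2(CPM + 2) of each of the 100 genes minus the gene's mean over 9 hours, with 1 row per gene and 1 column per hour, grouped by peak and trough hour; colours are capped at 1.5 log2 units either way. The 67 genes highest at ZT5 and lowest at ZT12 show a second pale to blue column at ZT9, and the 16 genes highest at ZT3 and lowest at ZT11 are red at ZT4, which took no part in the choice.

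The fall through the day was not even. Relative to each gene's mean of hours, the median of the 100 genes was 0.30 log2 units at ZT3, 0.50 at ZT5, 0.18 at ZT6, -0.01 at ZT7, -0.04 at ZT8, -0.30 at ZT9, 0.09 at ZT10, -0.17 at ZT11 and -0.51 at ZT12. The median thus fell from ZT5 to ZT7, changed little to ZT8 and fell again to ZT9. It was higher at ZT10, where single libraries differed widely (given below), and then fell to the low of ZT12. From ZT7 to ZT8, 55 of the 100 genes rose, with a median step of 0.02, beside 59.8% of all 7691 genes. At ZT10, 79 of the 100 genes stood higher than at ZT9, by a median of 0.41, while 33.2% of all 7691 genes did so and the median of all genes was -0.15. At ZT9, 74 of the 100 stood lower than at ZT8, beside 43.3% of all genes. At the last step the count was fixed by the choice. The 79 genes lowest at ZT12 must stand lower there than at ZT11, and the 21 lowest at ZT11 must stand higher. The median step of the 100 was -0.44. Of all genes, 47.8% stood lower at ZT12 than at ZT11. These steps are built from the hourly means that chose the genes.

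The genes of the 2 peak hours are set side by side here, and they also differed in trough hour. Of the 28 genes highest at ZT3, 16 were lowest at ZT11, against 5 of the 72 highest at ZT5. The 72 genes highest at ZT5 had medians of 0.21 at ZT3, 0.63 at ZT5 and 0.15 at ZT6, then -0.33 at ZT9, 0.11 at ZT10, -0.10 at ZT11 and -0.57 at ZT12. The 28 genes highest at ZT3 had medians of 0.53 at ZT3, 0.08 at ZT5 and 0.23 at ZT6, then -0.16 at ZT9, -0.01 at ZT10, -0.43 at ZT11 and -0.23 at ZT12. The 28 genes highest at ZT3 were themselves of 2 kinds at ZT9. The 12 of them lowest at ZT12 had a median of -0.42 at ZT9, and 11 stood higher at ZT10 than at ZT9, by a median of 0.49. The 16 of them lowest at ZT11 had a median of 0.15 at ZT9, and 13 stood lower at ZT10. Among the 67 genes highest at ZT5 and lowest at ZT12, 62 stood higher at ZT10 than at ZT9, by a median of 0.47. From ZT9 to ZT12 these 67 genes had hourly medians of -0.33, 0.11, -0.09 and -0.60. The 12 genes highest at ZT3 and lowest at ZT12 had -0.42, 0.04, -0.15 and -0.62, a similar course. The low of ZT9 and the return at ZT10 were thus seen in genes of both peak hours with their trough at ZT12. These differences were not tested, since the peak and trough hours divide the sets.

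In the edgeR fit over all 66 libraries, which tested all 100 genes among 10916, 98 of them passed the test of a time effect at an adjusted p of 0.05, where 21.9% of all genes tested passed. At ZT12 against ZT5, 81 of the genes passed as lower (6.13% of all genes tested), with a median log2 change of -1.12 over the 100. At ZT12 against ZT3, 50 passed as lower (2.34% of all genes tested), with a median of -0.88. The 7 libraries of ZT12 lay wholly below the 6 of ZT5 used in the choice in 53 genes (2.51% of the 7691), and wholly below the 6 of ZT3 in 28 genes (1.39%). The 7 libraries of ZT9 lay wholly below those of ZT5 in 38 genes (3.34%). The rule used these contrasts, and the counts are no evidence for the pattern. Without the 4 libraries that stand apart, the edgeR counts were 97 for the time effect (19.9% of 11726 genes tested), 80 at ZT12 against ZT5 (5.66%) and 46 at ZT12 against ZT3 (1.83%).

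NVE8297 had the largest F. It ran from 3.42 to 13.8 CPM at ZT12 with a median of 9.33 CPM (2 to 10 counts a library), against 29.6 to 194 CPM at ZT5 with a median of 112 CPM. All 7 ZT12 libraries lay below all ZT5 libraries. At ZT5 the single animals and the pools did not overlap: the pools had 45.7 and 29.6 CPM, and 37.9 CPM in the pool not used in the choice, against 100 to 194 CPM in the 4 single animals. The interaction of hour and sample type of NVE8297 did not pass (edgeR adjusted p = 0.531).

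NVE2856, second by F, ran from 12.6 to 73.3 CPM at ZT12 with a median of 27.3 CPM, against 70.6 to 288 CPM at ZT5 with a median of 157 CPM. Here the ranges met, since the highest ZT12 library, a single animal, lay above the lowest ZT5 library, also a single animal. At ZT10 it ran from 52.5 to 151 CPM with a median of 101 CPM, overlapping both ZT9 and ZT11. Its highest value in any library, 442 CPM, was in ZT5 pooled E, which took no part in the choice.

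NVE9201, an abundant gene highest at ZT3, followed the ZT11 dip. It ran from 592 to 1081 CPM at ZT3 with a median of 887 CPM, from 259 to 332 CPM at ZT11 with a median of 270 CPM, and from 304 to 879 CPM at ZT12 with a median of 555 CPM. The 7 libraries of ZT11 lay wholly below those of ZT3, and 6 of the 7 ZT12 libraries lay above all of ZT11. Across all 100 genes, 13 had ZT11 wholly below ZT3 in this way (0.975% of the 7691).

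NVE16297, also highest at ZT3 on the log2 scale, had its low at ZT12. It ran from 18.7 to 84.2 CPM at ZT12 with a median of 48.1 CPM, against 99.4 to 174 CPM at ZT3 with a median of 146 CPM, and these groups did not overlap. ZT3 individual B, which took no part in the choice, had 82.3 CPM, below the highest ZT12 library. At ZT10 the gene stood at 88.6 to 213 CPM with a median of 139 CPM, overlapping the range of ZT3. Its mean in plain CPM was higher at ZT5 (147 ± 85.5 CPM, SD, n = 6) and ZT10 (146 ± 54.5 CPM, SD, n = 7) than at ZT3 (142 ± 27.9 CPM, SD, n = 6), so that its place among the genes highest at ZT3 comes from the log2 scale.

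**Figure D2:**
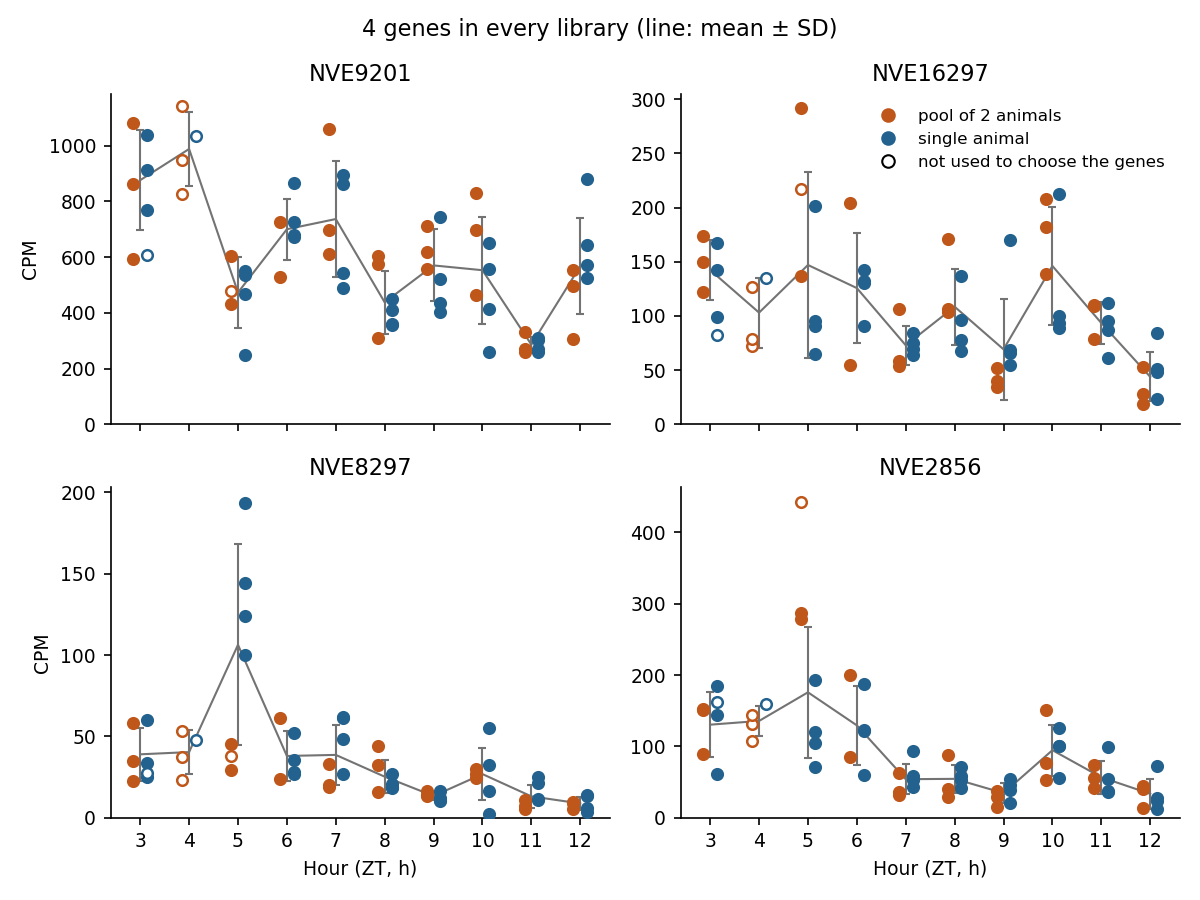
CPM of NVE9201, NVE16297, NVE8297 and NVE2856 in every library against the hour, with orange points for pools of 2 animals and blue points for single animals. Open points are libraries that took no part in the choice. The line runs through the mean ± SD of the libraries used in the choice, and of all ZT4 libraries at ZT4. NVE9201 dips at ZT11 (259 to 332 CPM) and is higher again at ZT12, NVE16297 is high again at ZT10, and NVE8297 at ZT5 has the 4 single animals above the 3 pools.

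The genes with the largest spread within an hour were NVE4748 and NVE1925, with a residual SD of 1.53 and 1.21 log2 units after hour and sample type were removed. The 100 genes had a median residual SD of 0.43, beside 0.46 over all 7691. NVE4748 had no count in 6 libraries from ZT7 to ZT12. At ZT9 alone its libraries ran from 0 to 81.2 CPM with a median of 62.1 CPM, and at ZT11 from 0 to 11.8 CPM with a median of 1.49 CPM. NVE1925 ran from 1.58 to 87.4 CPM at ZT12 with a median of 13.6 CPM, against 24.3 to 255 CPM at ZT5 with a median of 123 CPM, so that single libraries of either hour overlapped. Of the 100 genes, 5 had at least 1 library without a count, and 58 had at least 10 counts in every library.

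Taken as a whole, the 100 genes held a median of 1.504% of a library's counts at ZT3, 1.58% at ZT5, 1.04% at ZT9, 1.15% at ZT10 and 0.880% at ZT12. Their level in a library, the median over the 100 genes of log2(CPM + 2) minus the gene's mean over the 60 libraries, ran from -0.56 to -0.16 at ZT12 with a median of -0.51, against 0.33 to 0.63 at ZT5 with a median of 0.57 and 0.09 to 0.38 at ZT3 with a median of 0.35. The ZT12 libraries lay below those of both morning hours, a contrast that chose the genes. At ZT10 the libraries ran from -0.32 to 0.60 with a median of -0.01 and spread over nearly the whole range of the day. At ZT9 they ran from -0.41 to -0.13 with a median of -0.28, and all 7 were low. All genes together had a median level of 0.12 at ZT9, between -0.05 and 0.03 at the other hours, so the ZT9 low of the 100 genes went against the rest on the CPM scale. TMM scaling, which corrects for library composition, shifted the median of all genes by -0.13 at ZT9, 0.10 at ZT4 and by less at the other hours. On that scale the median of all genes relative to the mean of hours was 0.01 at ZT9, and the 100 genes stood at 0.34 at ZT3, 0.58 at ZT5, -0.44 at ZT9, 0.11 at ZT10 and -0.53 at ZT12.

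**Figure D3:**
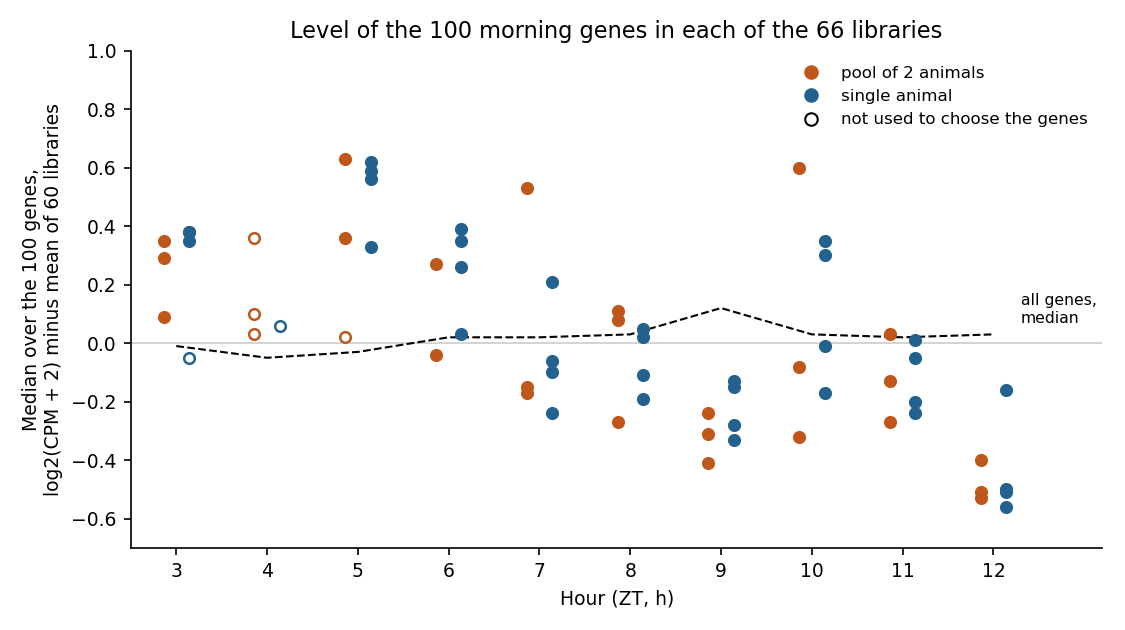
Level of the 100 genes in each of the 66 libraries (median over the genes of log2(CPM + 2) minus the gene's mean over 60 libraries) against the hour, with orange points for pools of 2 animals, blue points for single animals, open points for the 6 libraries not used to choose the genes, and a dashed line for the median of the same level over all genes. The ZT12 libraries lie between -0.56 and -0.16, and ZT10 spreads from -0.32 to 0.60.

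ZT4 took no part in the choice, so the size of its difference from the mean of the other 9 hours is nearly independent of the choice. The share of genes that passed is less so, since level and F chose the genes. Of the 100 genes, 11 passed as higher at ZT4 (2.29% of all genes tested), and 0 passed as lower (0.971% of all genes tested; edgeR quasi-likelihood test with Benjamini-Hochberg adjustment over 10916 genes). At an unadjusted p below 0.05, 29 of the genes were higher (9.9% of all genes) and 4 lower (8.59%). The median log2 difference of the 100 genes was 0.20, with quartiles of -0.12 and 0.55, beside -0.04 over all genes, and 66 of the 100 lay above 0 (46.3% of all genes). Of the 28 genes highest at ZT3, 10 passed as higher at ZT4, 26 lay above 0 and the median difference was 0.62. The 16 of these lowest at ZT11 had 7 that passed and a median of 0.67. The 12 lowest at ZT12 had 3 that passed and a median of 0.36. Of the 72 genes highest at ZT5, 1 passed, 40 lay above 0 and the median was 0.07. In these the median was 0.38 over the 5 lowest at ZT11 and 0.06 over the 67 lowest at ZT12. Whether genes of different peak or trough hours differ at ZT4 was not tested. The 100 genes are not matched to all genes tested for level or for spread within an hour. All 100 came from the 7691 genes that passed the level filter, while edgeR tested 10916. Their median residual SD was 0.43 log2 units, beside 0.46 over the 7691. Whether level or spread bears on the share that passed was not tested.

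NVE1102 had the smallest p of the 100 genes at ZT4. It had 94.3, 184 and 175 CPM in the ZT4 pools D, E and F and 99.4 CPM in the single animal C, while its medians at the other hours, over the 60 libraries, ran from 20.9 CPM at ZT11 to 62.5 CPM at ZT12. All 4 ZT4 libraries stood above every other hour's median but overlapped single libraries of ZT3, ZT9 and ZT12, the highest of which was a single animal of ZT9 with 168.5 CPM. Its log2 difference was 1.68 (SE 0.27, edgeR adjusted p = 2.85e-05). NVE1102 is one of the genes lowest at ZT11 that return: its log2 change at ZT12 against ZT3 was 0.00.

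NVE13968 had 190, 162 and 156 CPM in the ZT4 pools D, E and F and 143 CPM in the single animal C, against hourly medians from 43.3 CPM at ZT11 to 124 CPM at ZT3. The 4 libraries were all high: pool D lay above the ZT3 range of 78.9 to 181 CPM and the others lay in its upper part. Its log2 difference was 1.08 (SE 0.20, edgeR adjusted p = 0.000326). NVE9201 passed too, with 1142, 948 and 828 CPM in the pools and 1033 CPM in the single animal, and a log2 difference of 0.93 (SE 0.19, edgeR adjusted p = 0.000935). The 11 genes that passed had log2 differences between 0.59 and 1.68, and in 10 of them all 4 ZT4 libraries lay above the mean of the 60 libraries.

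No gene of the 100 passed as lower at ZT4. NVE8819, with the smallest p in that direction, had 24.9, 22.6 and 41.0 CPM in the pools D, E and F and 35.8 CPM in the single animal C, against hourly medians from 39.5 CPM at ZT12 to 64.1 CPM at ZT5. Pools D and E lay below all 60 libraries of the other hours, and the other two ZT4 libraries lay among them. Its log2 difference was -0.54 (SE 0.22, edgeR adjusted p = 0.169). NVE19089 had 30.2, 7.52 and 14.8 CPM in the pools and 11.9 CPM in the single animal, on 3 to 17 counts a library, with pool E below all 60 libraries and the rest among them. Its log2 difference was -0.74 (SE 0.34, edgeR adjusted p = 0.232). Both peaked at ZT5, an hour after these values.

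The count of 11 rested on few libraries. Leaving out the ZT4 pool D gave 5 genes, pool F also 5, pool E 6 and the single animal C 7. Over the whole table, 2.19% of genes passed as higher without pool D and also 2.19% without C, but 0.757% without pool F and 0.713% without pool E. The fit without the 4 libraries that stand apart gave 3, all of them highest at ZT3, with 2 pools left at ZT4, and 46 of 11726 genes (0.392%) passed as higher over the whole table. At an unadjusted p below 0.05 that fit gave 17 of the 100 genes as higher (6.27% of all genes) and 0 as lower (4.43%). Its median log2 difference was 0.20 over the 100 genes, 0.62 over the 28 highest at ZT3 and 0.11 over the 72 highest at ZT5, beside -0.03 over all genes. NVE1102 and NVE13968 kept their call there, with log2 differences of 1.63 and 1.17 (edgeR adjusted p = 0.0182 and 0.025).

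**Figure D4:**
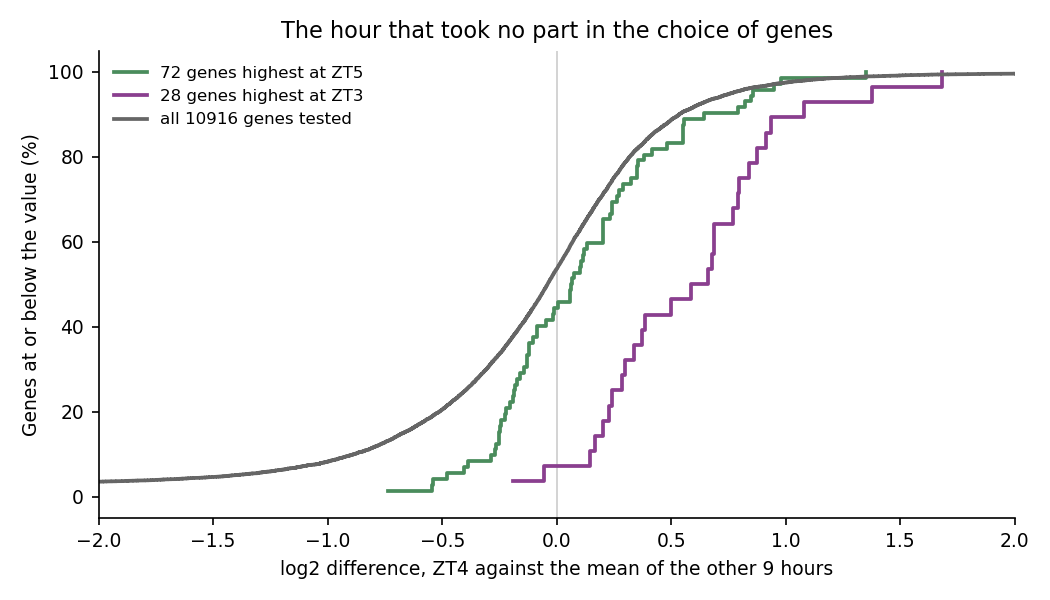
Share of genes (%) at or below each log2 difference of ZT4 against the mean of the other 9 hours, for the 72 genes highest at ZT5, the 28 genes highest at ZT3 and all 10916 genes tested by edgeR; values beyond 2 log2 units either way are not drawn. The curve of the genes highest at ZT3 lies to the right, with a median of 0.62, while the medians of the genes highest at ZT5 and of all genes are 0.07 and -0.04. Genes of different trough hours are not drawn apart.

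The place of the ZT4 hourly mean beside ZT3 and ZT5 is given as description only. The ZT4 mean lay below both neighbours in 63 of the 100 genes, between them in 23 and above both in 14, and it lay above the ZT12 mean in 94. With only the ZT4 pools D and F, which do not stand apart, the counts were 54 below both, 28 between and 18 above both, and 96 above ZT12. The choice fixed 1 of the neighbours as the peak and ZT12 as the lowest hour of 79 genes, which bears on all of these counts. The same counts over all genes were not made, so they are not read as a trait of the 100 genes. Relative to the mean of hours, the ZT4 median was 0.11 over the 100 genes, with 58 above 0. Over all 7691 genes it was -0.12, with 37.1% above 0, beside all-gene medians of -0.03 at ZT3 and -0.08 at ZT5. With TMM scaling the ZT4 median was 0.21 over the 100 genes and -0.02 over all genes. ZT4 individual C, with the lowest total, had a median level of -0.31 over all genes.

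The other libraries left out of the choice did not stand as high as their hours. ZT3 individual B had a level of -0.05, against 0.09 to 0.38 in the 6 ZT3 libraries used. In it 46 of the 100 genes lay above their mean over the 60 libraries, beside 46.03% of all genes. ZT5 pooled E had a level of 0.02, against 0.33 to 0.63 in the 6 ZT5 libraries used, with 54 of the 100 genes above their mean, beside 47.4% of all genes. The libraries they are set against chose the genes as high at these hours, so a library left out can stand lower for that reason alone. Both are among the 4 libraries that stand apart. With TMM-scaled CPM the level of ZT3 individual B turned to 0.03 and that of ZT5 pooled E was 0.05. The ZT4 libraries had levels of 0.36, 0.10 and 0.03 in the pools D, E and F and 0.06 in the single animal C. For the 28 genes highest at ZT3 alone, the same 4 libraries stood at 0.58, 0.54, 0.41 and 0.38, all above the mean. The 16 of these genes lowest at ZT11 stood at 0.67, 0.54, 0.46 and 0.49 in them. The 12 lowest at ZT12 stood at 0.46, 0.55, 0.35 and -0.07.

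No difference between pools and single animals was called in any of the genes. Of the 100 genes, 0 passed as higher in pools and 0 as lower (0.0% of the 10916 genes tested in either direction, edgeR adjusted p). At an unadjusted p below 0.05, 0 were higher and 4 lower in pools (2.97% and 2.5% of all genes), and DESeq2, limma and the edgeR fit without the 4 libraries that stand apart also called 0. The log2 differences of pools minus single animals ran from -0.37 to 0.38 with a median of -0.03, and their median SE was 0.12. The smallest adjusted p was that of NVE17816, with a difference of -0.20 (SE 0.07, edgeR adjusted p = 0.772), and NVE16503 had the smallest p in the other direction, with 0.14 (SE 0.08, edgeR adjusted p = 0.925). Next to them were NVE7479 with -0.37 and NVE12996 with 0.20 (edgeR adjusted p = 0.793 and 0.965).

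The daily course was also followed in each kind of library, as description, since both kinds entered the hourly means that chose the genes. In pools the median of the 100 genes relative to the mean of hours was 0.28 at ZT3, 0.48 at ZT5, -0.37 at ZT9, 0.05 at ZT10 and -0.53 at ZT12. In single animals it was 0.36, 0.48, -0.24, 0.11 and -0.51 at the same hours. Over all 7691 genes the medians at these hours were 0.02, -0.18, 0.11, 0.01 and 0.01 in pools. They were -0.06, -0.03, 0.14, -0.03 and 0.04 in single animals. The interaction of hour and sample type was called in 0 of the 100 genes (0.147% of all genes tested, edgeR adjusted p). At an unadjusted p below 0.05 it was called in 5 of them, beside 7.38% of all genes, and DESeq2, limma and the edgeR fit without the 4 libraries called 0. A p above the threshold does not show that the courses are the same.

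Within an hour, the genes had higher correlations with each other across libraries than genes did in general. After removing hour and sample type from log2(CPM + 2) in the 60 libraries, the median correlation between pairs of the 100 genes was 0.20, beside 0.02 between pairs of all 7691 genes. Each gene's correlation with the sum of the other 99 had a median of 0.48 and ran from -0.30 to 0.85. It was above 0.5 in 44 of the 100. The 7591 other genes were correlated with the sum of these same 100 genes, and 3.74% of them were above 0.5. The 100 genes were chosen for like hourly means in these same libraries, so the 2 shares are not like for like. Pairs of genes both highest at ZT5 had a median of 0.26, pairs both highest at ZT3 a median of 0.12 and mixed pairs 0.12. All points share the same libraries, their depth and their composition, so these values are a description and carry no p. The sets are not matched for level, with a median of 69.8 CPM for the 100 genes and 39.1 CPM for all 7691. Whether level, or the choice by hourly means, bears on the difference was not tested.

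Part of this rested on a few libraries. ZT7 pooled E and ZT10 pooled E stood 0.47 log2 units above the mean of their hour and sample type in the median of the 100 genes, while all genes stood at -0.20 and -0.12 in them. ZT10 pooled F stood at -0.41 and ZT10 individual C at -0.33, with all genes at 0.04 and 0.05. Without ZT7 pooled E and ZT10 pooled E together, the median correlation between pairs was 0.13, and with TMM-scaled CPM it was 0.29. In those 2 libraries the 100 genes held 1.73% and 1.74% of all counts, more than in any library of ZT3 or ZT5.

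**Figure D5:**
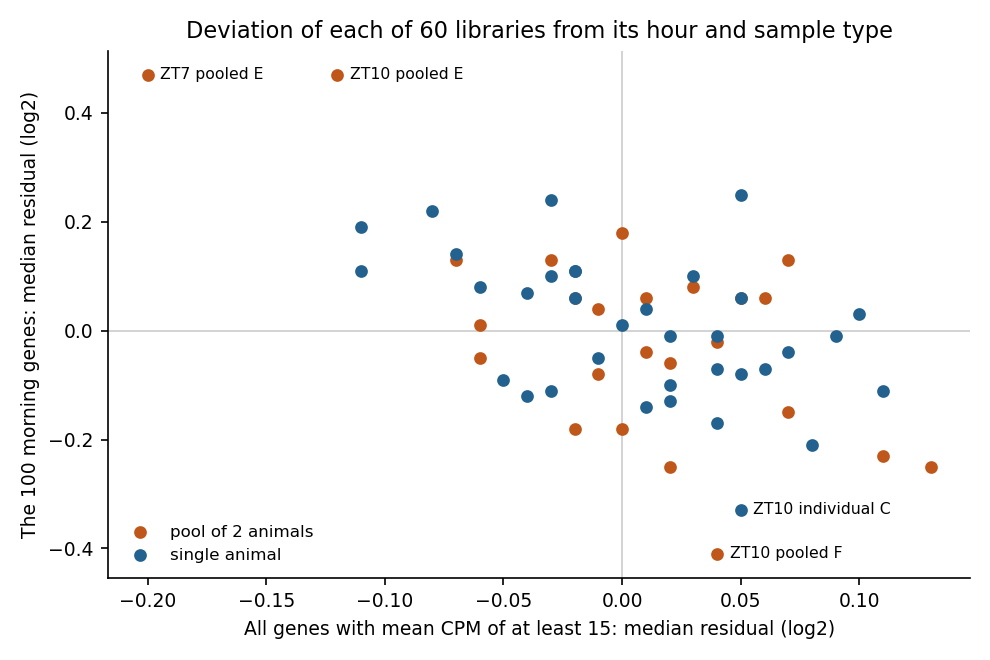
Median residual of the 100 genes (log2, vertical axis) against the median residual of all genes with a mean of at least 15 CPM (log2, horizontal axis) in each of the 60 libraries, after hour and sample type were removed, with orange points for pools and blue points for single animals. ZT7 pooled E and ZT10 pooled E lie at 0.47 on the vertical axis with all genes at -0.20 and -0.12, and ZT10 pooled F lies lowest at -0.41.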

How the data were processed

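RNA of whole adult anemones was sequenced in 66 libraries. The deposited table holds whole-number counts per gene model; per the labels, libraries were made by the method of Meyer and colleagues and the genome is from Putnam and colleagues. Bowtie2 is named in the submitters' processing notes. Which tool counted reads, on which annotation, and whether duplicates were removed is not given in the sources used here. Reads of closely related gene models may have been split or dropped, and counts may include amplification.

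CPM was computed as the deposited counts over the column sum times 1000000, and levels as log2(CPM + 2). No factor corrects CPM for composition. Tests used edgeR 4.0.16 in R 4.3.3 on the deposited counts: TMM factors, filter by expression with a minimum count of 10 and hour as group (10916 gene models), robust quasi-likelihood fit, hour and sample type as terms, all 66 libraries, and Benjamini-Hochberg adjustment over all genes tested with a threshold of 0.05. The interaction was fitted apart. Log2 changes and standard errors come from that fit.

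The members and lists were chosen with earlier results of these data known. Identifiers named are the 2 genes with the largest F at each peak hour, up to 2 genes with the smallest p in each direction of each test, the genes on either side of the F threshold and the 2 with the largest residual SD. NVE3853 was chosen after its values were seen. A RefSeq gene table (jaNemVect1.1) matched 0 of the identifiers, so no name, sequence or gene list was used. Alternatives were limma 3.58.1 (voom, quality weights), DESeq2 1.42.0, other scalings, filters and pseudocounts, the replicate letter as a block, and libraries left out. The legacy edgeR method, the TMM-scaled hourly profile, the place of ZT4 from pools D and F alone and the co-variation without single libraries were chosen after seeing the data.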

Additional observations from a re-analysis of the deposited data

Results flagged for a closer look

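Library values were compared within each group of 4 libraries of 1 hour and sample type, for the level and the share of counts of the 100 genes and for the genes highest in F or named at ZT4. Of 90 such groups, 9 held a library whose gap to the nearest other library was large beside the range of the group. The critical value used is passed by chance in about 1 in 20 independent groups, and these groups are not independent, since the level, the share and the genes come from the same libraries.

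In the level of all 100 genes, ZT3 individual B stood at -0.05 against 0.35 to 0.38 in the other 3 single animals of ZT3. Those 3 entered the choice of genes and ZT3 individual B did not, so the chance rate does not hold for this gap. ZT12 individual C stood at -0.16 against -0.56 to -0.50. In their share of counts, ZT5 individual D held 1.33% against 1.58% to 1.60%, and ZT7 individual A held 1.43% against 1.11% to 1.14%.

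Single genes gave the other 5 values. NVE16297 had 170 CPM in ZT9 individual B against 54.4 to 68.3 CPM, and 213 CPM in ZT10 individual D against 88.6 to 99.7 CPM. NVE1102 had 168.5 CPM in ZT9 individual A against 53.9 to 65.8 CPM. NVE13968 had 125.1 CPM in ZT8 individual C against 65.6 to 75.1 CPM, and 85.8 CPM in ZT11 individual D against 42.4 to 48.2 CPM.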

How the results depend on the processing

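Of the count of 11 genes higher at ZT4, where 2.29% of all genes passed, limma gave 20 (5.49% of all genes), no filter on low counts 7 (0.68%), DESeq2 10 (2.13%), the replicate block 11 (2.01%), DESeq2 size factors 11 (2.42%), the legacy method 11 (1.99%), no covariate 12 (2.51%) and the fit without the 4 libraries that stand apart 3 (0.392%); leaving out each library gave 5 to 14, and beyond fewer libraries the cause was not tested. Genes lower at ZT4 numbered 0 in every fit run, with 0 to 5 at an unadjusted p below 0.05. The median log2 difference at ZT4 ran from 0.142 to 0.253 with each library left out. Pools against single animals and the interaction gave 0 in every fit run; the interaction was refitted only without each of the 18 libraries of ZT3 to ZT5. The choice of genes kept 99 of 100 with a pseudocount of 0.5, 92 with the replicate block, 86 at 5 CPM, 83 with no filter, 74 with TMM, 69 with all 66 libraries and 53 without ZT9, where 716 genes rather than 451 had the peak and trough hours asked for. Each library left out kept 80 to 98, fewest without ZT12 individual C. The median pairwise correlation of 0.197 was 0.287 with TMM-scaled CPM, 0.128 without ZT7 pooled E and ZT10 pooled E together, and 0.163 to 0.203 with each library left out; the cause was not tested. Deviations of same-lettered libraries of different hours had a median correlation of 0.0678 and a lowest of -0.560. The median was 0.0275 for other letters. Whether libraries of 1 replicate letter belong together was not tested. ZT4 has 4 libraries, among them the one with the lowest total, which limits the precision of its comparison.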
